A study of Mus musculus with 9 samples.

Results

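Acetyl-CoA is made for the mitochondrion and for the cytosol and nucleus by separate enzymes, and 6 genes of this supply were examined in the forebrain of *Npas3* mutant embryos. They were chosen by symbol, and all 6 were found among the 55401 genes of the count table. *Acss1*, *Acss2* and *Acss3* encode acyl-CoA synthetases of short chains, *Acly* encodes ATP citrate lyase, and *Acat1* and *Acat2* encode acetyl-CoA acetyltransferases. The latter are thiolases and are distinct from the sterol O-acyltransferases that share their abbreviation. RNA came from bulk forebrain of female embryos at E16 to E17, with 5 wild-type (WT, *Npas3*+/+) and 4 heterozygous (HET, *Npas3*+/-) embryos. The deletion of 1 *Npas3* allele is constitutive, so all cells of a HET embryo carry it, and WT littermates on the same C57BL/6J background were the controls. No treatment was given to either group, and the litter of each embryo is not given in the sources used here. All 6 genes passed the filter on low counts, which left 17818 genes for the test.

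Pyruvate dehydrogenase supplies most mitochondrial acetyl-CoA, which condenses with oxaloacetate to citrate. Citrate that leaves the mitochondrion is split by ACLY, which returns acetyl-CoA to the cytosol for the synthesis of fatty acids and sterols and for the acetylation of histones. Free acetate is a second source. ACSS1 activates it inside mitochondria, where the product can enter the TCA cycle, whereas ACSS2 activates it in the cytosol and nucleus. In the brain, acetate has long been used as a fuel that astrocytes take up in preference to neurons.

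Between 42640218 and 62830060 reads were counted per embryo, and these were scaled to counts per 1000000 (CPM) by edgeR's TMM method. The labels name astrocytes as the cell type, but the tissue was whole forebrain. The 8 neuronal markers examined summed to 4741 to 5244 CPM in WT and to 4762 to 5483 CPM in HET embryos. The 12 markers of radial glia and the astrocyte lineage summed to 1613 to 1756 CPM in WT and 1364 to 1448 CPM in HET embryos, so both kinds of cell were represented. For the targeted gene, *Npas3*, WT embryos had 36.2 ± 4.18 CPM (SD, n = 5) and HET embryos 29.5 ± 3.09 CPM (SD, n = 4). Its log2 fold change was −0.30, and edgeR's quasi-likelihood test gave an unadjusted p of 0.0134 and an adjusted p of 0.877. For *Npas3*, 3 of the 4 HET embryos were below every WT embryo. The groups overlapped because HET embryo 7 had 34.1 CPM and the lowest WT embryo 29.7 CPM. RNA of the choroid plexus was unequal between embryos. *Ttr*, the transthyretin gene of that epithelium, ranged from 2127 to 2631 CPM in WT embryos 15, 16 and 41. HET embryo 24 had 467 CPM of it, and the other 5 embryos had 0.77 to 11.7 CPM. Each comparison was therefore repeated in 2 ways, first by adding a covariate for choroid plexus markers. The second way kept only embryos whose *Ttr* was under 100 CPM, which are 2 WT and 3 HET embryos.

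Promoter sequence is shown for *Acss1* and *Acss2*, which catalyse the same reaction in separate compartments, and for *Acly* as the citrate route. The study required an E-box in the promoter of its candidate genes, so the letters CANNTG of that motif were sought. RefSeq promoters on GRCm38.p6 were matched for 4 of the 6 genes, and the search covered the 250 bases before the annotated start on both strands. A second motif was CACGTG, a form of the E-box. Inside it lies ACGTG, a core bound by several bHLH-PAS dimers, which was counted by itself too. The last motif was GCGTG, another such core. Of each window the longest stretch outside annotated exons is given 5′ to 3′ on the strand of the gene, with matches in capitals. These stretches are chr2:150668259-150668337 on the minus strand for *Acss1*, chr2:155517793-155517947 on the plus strand for *Acss2* and chr11:100528001-100528250 on the minus strand for *Acly*.
Acss1: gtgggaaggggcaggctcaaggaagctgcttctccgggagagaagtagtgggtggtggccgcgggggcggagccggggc
Acss2: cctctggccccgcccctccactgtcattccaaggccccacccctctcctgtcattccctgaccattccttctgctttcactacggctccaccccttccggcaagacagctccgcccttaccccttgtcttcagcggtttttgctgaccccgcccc
Acly: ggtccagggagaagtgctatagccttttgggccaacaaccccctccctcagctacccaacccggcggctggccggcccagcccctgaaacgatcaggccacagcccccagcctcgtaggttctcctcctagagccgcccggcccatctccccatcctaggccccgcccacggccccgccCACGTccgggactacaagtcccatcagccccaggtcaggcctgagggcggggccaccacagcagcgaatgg
In its whole window *Acss1* held 0 matches to any of the motifs. The window of *Acss2* held 1 match to GCGTG, which starts 93 bases before the RefSeq start and lies in a first exon, outside the stretch shown. The *Acly* window held 1 match to ACGTG, in capitals above and read on the opposite strand, and that of *Acat2* held 3 matches to GCGTG. The E-box letters CANNTG were in 0 of the 4 windows and in 66.2% of the 32851 promoters of the same length. CACGTG was in 6.02% of all promoters. The share with ACGTG was 16.6%. GCGTG occurred in 28.2% of them. The absence of a match says only that these letters are not in this window.

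Levels of different genes were compared per kilobase of merged exons (RPKM). In WT forebrain the order was *Acly* at 90.5 RPKM (82.4 to 102), *Acat1* at 58.9 ± 5.47 RPKM, *Acat2* at 52.2 ± 3.56 RPKM, *Acss1* at 7.0 ± 1.34 RPKM, *Acss2* at 2.46 ± 0.118 RPKM and *Acss3* at 0.15 ± 0.109 RPKM (range for *Acly*, SD for the others, n = 5). The citrate route was thus represented by far more mRNA per length than either acetate-activating enzyme. *Acat1* and *Acat2* were neighbours whose WT embryos overlapped, at 50.3 to 65.5 and 49.6 to 58.3 RPKM. *Acss1* and *Acss2* did not overlap in WT embryos on this scale, at 5.58 to 9.01 and 2.33 to 2.6 RPKM. The separation of these ranges depended on the length taken, since the merged exons of *Acss2* span 10163 bases against 3609 in its longest transcript. Per kilobase of the longest transcript, the WT mean was 7.99 RPKM for *Acss1* (6.37 to 10.3) and 6.93 RPKM for *Acss2* (6.55 to 7.33), in the same order but with overlapping embryos. On that scale HET embryos had 3.13 to 5.19 RPKM of *Acss1* and 6.01 to 7.44 RPKM of *Acss2*, with *Acss2* higher in all 4.

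**Figure D1:**
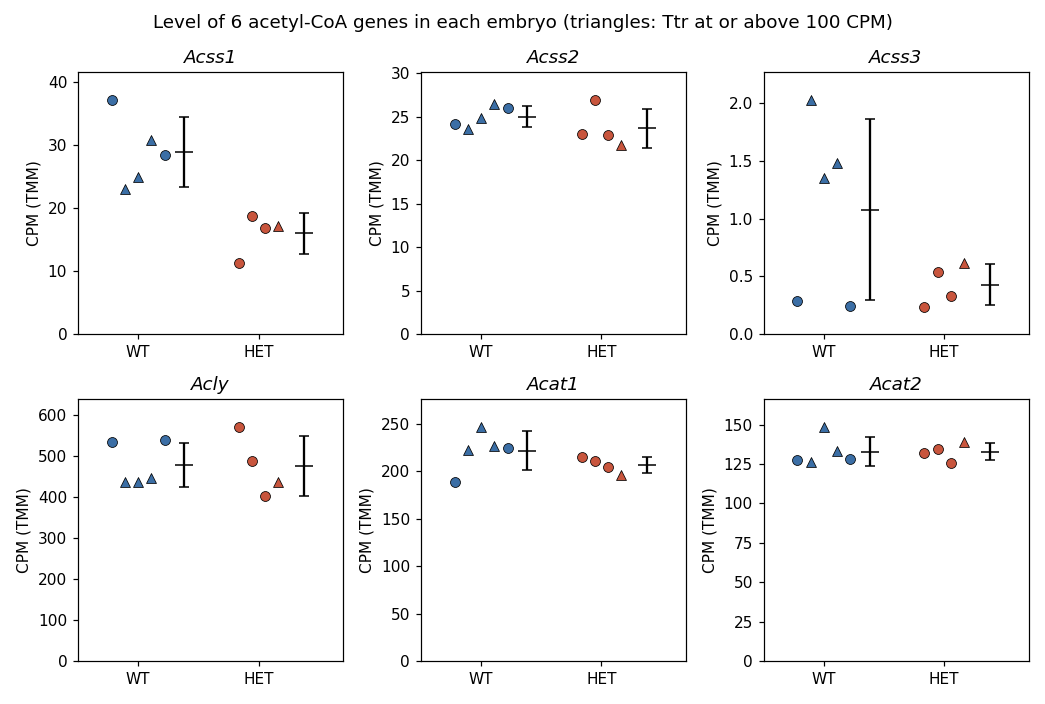
Level of each gene in CPM (scaled by TMM, linear axis from 0) in 5 WT and 4 HET embryos. Each point is an embryo, triangles mark embryos with *Ttr* at or above 100 CPM, and the bar is the mean with its SD. *Acss1* is the gene whose groups do not meet, with 23.0 CPM as the lowest WT and 18.8 CPM as the highest HET value.

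*Acss1*, the mitochondrial acetyl-CoA synthetase gene, had lower counts in every HET embryo than in any WT embryo. The gene (ENSMUSG00000027452) spans bases 150618105 to 150668500 of chromosome 2 on GRCm38, minus strand. *Acss1* was at 37.2 CPM in WT embryo 5, 23.0 in WT embryo 15, 25 in WT embryo 16, 30.9 in WT embryo 41 and 28.5 in WT embryo 43. It was at 11.3 CPM in HET embryo 5, 18.8 in HET embryo 6, 16.9 in HET embryo 7 and 17.2 in HET embryo 24. WT embryo 5 was the highest and HET embryo 5 the lowest, and the counts behind these values were 523 to 1962 reads. The HET mean was 55.6% of the WT mean, a log2 fold change of −0.85 (standard error 0.17, 95% interval −1.22 to −0.48). The unadjusted p of edgeR was 0.000399, the rank of 47 among 17818 genes, and the adjusted p was 0.151, so *Acss1* did not pass the threshold of 0.05. In edgeR's test 0 of the 6 genes were called in either direction, against 0.112% of all genes called lower and 0.0281% called higher in HET. Groups with every HET embryo below every WT embryo were seen for 1 of the 6 genes, against 1.07% of all genes tested. With DESeq2 the log2 fold change of *Acss1* was −0.84 with an adjusted p of 0.000466, where 0.381% of genes were called, 0.286% lower in HET. Of the 6 genes 5 had a log2 fold change below 0, against 51.5% of all genes. Without a filter on low counts edgeR gave *Acss1* an adjusted p of 0.0265. Using DESeq2 at an adjusted p under 0.05, the study named *Acss1* as lower in HET in these same embryos. These tests are therefore not independent of that choice. In bulk tissue, fewer cells that express a gene and less RNA of it per cell cannot be told apart.

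The difference in *Acss1* was as large in the embryos with little choroid plexus RNA. With *Ttr* under 100 CPM, *Acss1* ranged from 28.5 to 37.2 CPM in 2 WT embryos and was at 11.3 to 18.8 CPM in 3 HET embryos. Their log2 fold change was −1.06 (adjusted p = 0.734 from edgeR on 5 embryos). Adding the choroid plexus covariate gave −0.92 (adjusted p = 0.0976 from edgeR). Leaving out each embryo in turn gave −0.93 to −0.71, with adjusted p from 0.135 to 0.425 in edgeR. Of the exonic bases of *Acss1*, 2.74% are overlapped by a transcript on the opposite strand.

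Among the 12 markers of radial glia and the astrocyte lineage, 1 was called in edgeR, lower in HET, against 0.112% of all genes. At an unadjusted p under 0.05 in edgeR there were 3, all lower in HET, against 3.09% of all genes lower. In 2 of the 12 the groups did not overlap, against 1.85% of all genes in either direction. The list had a median log2 fold change of −0.03, with 7 of 12 below 0, against −0.005 over all genes tested. The called gene was *Fabp7*, a fatty acid binding protein of radial glia, with a log2 fold change of −0.86 (adjusted p = 0.0223 from edgeR). *Aqp4*, the water channel gene of astrocytes, was at 1.17 to 2.02 CPM in WT and 0.163 to 1.07 CPM in HET embryos, with a log2 fold change of −1.63 (unadjusted p = 0.0034, adjusted p = 0.555 from edgeR). The third was *Aldh1l1*, a folate enzyme gene used as an astrocyte marker, with −1.16 (unadjusted p = 0.0183, adjusted p = 0.904 from edgeR) and overlapping groups. Without *Fabp7*, the other markers summed to 1006 to 1149 CPM in WT and 978 to 1104 CPM in HET embryos, which overlapped. HET embryo 5, the lowest for *Acss1*, was the lowest of all 9 for *Fabp7* and *Aldh1l1* and the highest of all 9 for *Aldoc*, *Gja1* and *Hopx*. None of the 12 markers was at 0. The part of glial RNA in the *Acss1* difference was not tested.

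*Acss2*, which encodes the nucleocytosolic acetyl-CoA synthetase, had nearly the same level in all embryos. The gene (ENSMUSG00000027605) spans bases 155517948 to 155585724 of chromosome 2, plus strand. *Acss2* was at 24.1, 23.6, 24.8, 26.4 and 26.0 CPM in WT embryos 5, 15, 16, 41 and 43. It was at 23.0, 26.9, 22.9 and 21.7 CPM in HET embryos 5, 6, 7 and 24. The groups overlapped because HET embryo 6 was the highest of all 9, although the other 3 HET embryos were below every WT embryo. The log2 fold change was −0.08 (standard error 0.08, 95% interval −0.26 to 0.09, adjusted p = 0.913 from edgeR), and the interval of *Acss1* lies wholly below it. Genes on the opposite strand, *Gss*, *Ggt7* and *Acss2os*, overlap 9.12% of the exonic bases of *Acss2*.

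**Figure D2:**
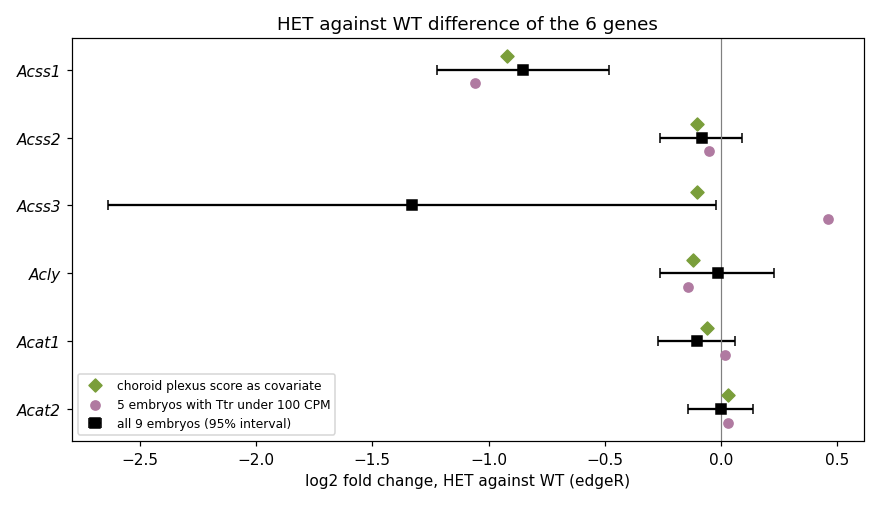
Log2 fold change of HET against WT for the 6 genes (linear axis). Squares with bars are edgeR's estimate over all 9 embryos with its 95% interval, diamonds add the choroid plexus covariate, and circles are the 5 embryos with *Ttr* under 100 CPM. *Acss1* stays between −1.06 and −0.85 in the 3 fits, whereas *Acss3* goes from −1.33 to −0.10 and 0.46.

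The balance of the acetate-activating enzymes was compared within each embryo, since a ratio of counts in a library is free of its scaling. *Acss1* held 49.4% to 60.6% of the reads of *Acss1* and *Acss2* together in WT embryos and 33.0% to 44.3% in HET embryos. Per kilobase of merged exons, the log2 ratio of *Acss1* to *Acss2* was 1.92, 1.26, 1.31, 1.53 and 1.43 in WT embryos 5, 15, 16, 41 and 43. It was 0.28, 0.79, 0.87 and 0.97 in HET embryos 5, 6, 7 and 24. All HET embryos were below all WT embryos, with the widest gap inside a group between HET embryo 5 and the rest of HET. WT embryos averaged 1.49 ± 0.26 (SD, n = 5) and HET embryos 0.73 ± 0.31 (SD, n = 4). They differed by −0.77 on the log2 scale (exact two-sided permutation test, p = 0.0159). This is the smallest p that 5 embryos against 4 allow, and the ratio holds *Acss1*, a gene known to differ when it was chosen. Within the 5 embryos with *Ttr* under 100 CPM the difference was −1.03 (exact permutation p = 0.2, the smallest that 2 against 3 allow). The length taken moves the level of the ratio, to a mean of 0.19 in WT and −0.58 in HET per kilobase of the longest transcript, and not its difference.

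**Figure D3:**
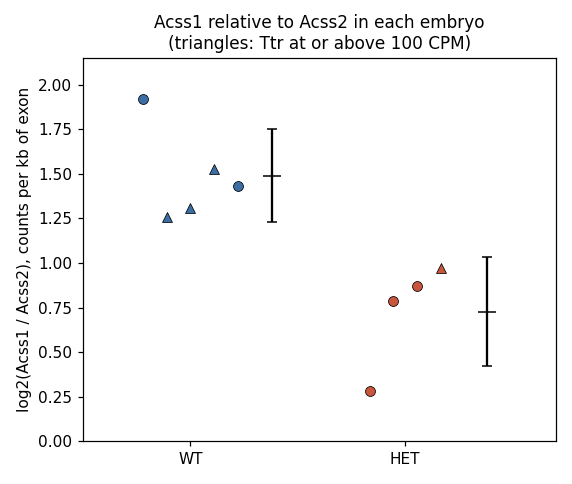
Log2 ratio of *Acss1* to *Acss2* counts per kilobase of merged exons in each embryo (linear axis). Points are embryos, triangles have *Ttr* at or above 100 CPM, and bars are the mean with its SD. The 4 HET embryos lie at 0.28 to 0.97 and the 5 WT embryos at 1.26 to 1.92.

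*Acss3*, which encodes a further mitochondrial synthetase with a preference for propionate, was barely expressed and was highest in the embryos with the most *Ttr*. The gene (ENSMUSG00000035948) spans bases 106933517 to 107123668 of chromosome 10, minus strand. *Acss3* had 92, 62 and 94 reads in WT embryos 15, 16 and 41, or 2.03, 1.35 and 1.48 CPM, and these are the WT embryos with *Ttr* at 2127 CPM or more. In WT embryos 5 and 43, with little *Ttr*, it had 12 and 11 reads, or 0.289 and 0.243 CPM. In HET embryos 5, 6, 7 and 24 it was at 0.238, 0.536, 0.331 and 0.614 CPM, the last being the HET embryo with 467 CPM of *Ttr*. The highest value in each genotype thus came from embryos with high *Ttr*. The log2 fold change over all embryos was −1.33 (standard error 0.59, 95% interval −2.64 to −0.02), with an unadjusted p of 0.0469 and an adjusted p of 0.911 in edgeR. Adding the choroid plexus covariate gave −0.10, and the value was 0.46 among the embryos with little *Ttr* (adjusted p = 0.977 and 0.999 from edgeR). The 8 choroid plexus markers all had a log2 fold change below 0, from −3.58 to −0.56, against 51.5% of all genes below 0. In edgeR 0 of 8 were called, against 0.14% of all genes. At an unadjusted p under 0.05 in edgeR there were 6 of 8, all lower in HET, against 3.09% of all genes. The summed level of the 8 markers was 18.9 to 2888 CPM in WT and 28.7 to 532 CPM in HET embryos. The marker *Kl* was at 0 in 1 WT embryo. Of the exonic bases of *Acss3*, 33.9% are shared with exons of *Ppfia2*, a synaptic liprin gene read in the other direction. *Ppfia2* was at 104 to 157 CPM, so *Acss3* counts are uncertain unless strand was used in counting, which the sources used here do not state. *Ppfia2* itself had overlapping levels in embryos with high and low *Ttr*, at 115 to 148 CPM in the 3 WT embryos with high *Ttr* and 104 to 134 CPM in the others of that genotype.

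**Figure D4:**
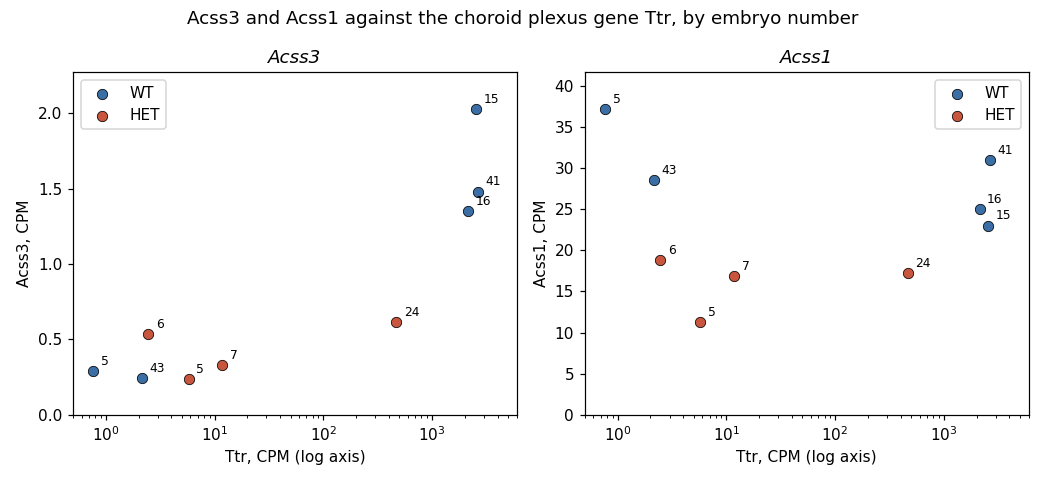
*Acss3* (left) and *Acss1* (right) in CPM on a linear axis against *Ttr* in CPM on a log axis, with each embryo's number beside its point. WT embryos 15, 16 and 41 have 1.35 to 2.03 CPM of *Acss3* and the others 0.614 CPM or less. *Acss1* is lower in every HET than in any WT embryo. With *Ttr* at 100 CPM or more there is 1 HET embryo, 24. Its *Ttr* of 467 CPM is below the 2127 to 2631 CPM of WT embryos 15, 16 and 41.

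*Acly*, the citrate route to cytosolic acetyl-CoA, differed between embryos of the same genotype more than between genotypes. The gene (ENSMUSG00000020917) spans bases 100476353 to 100528000 of chromosome 11, minus strand, and its exons overlap no other annotated exon. *Acly* was at 533, 435, 436, 447 and 538 CPM in WT embryos 5, 15, 16, 41 and 43. It was at 569, 488, 401 and 437 CPM in HET embryos 5, 6, 7 and 24. The WT embryos with *Ttr* at 2127 CPM or more had 435 to 447 CPM and the other WT embryos had 533 to 538 CPM, whereas HET embryos with little *Ttr* spanned 401 to 569 CPM. The part of choroid plexus RNA in this spread was not tested. The log2 fold change of *Acly* was −0.01 (standard error 0.11, 95% interval −0.26 to 0.23, adjusted p = 0.991 from edgeR), and adding the choroid plexus covariate gave −0.12.

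*Acat1*, the mitochondrial thiolase of ketone body use and isoleucine breakdown, had a narrow range. The gene (ENSMUSG00000032047) spans bases 53580522 to 53610382 of chromosome 9, minus strand. *Acat1* was at 189, 222, 246, 226 and 224 CPM in WT embryos 5, 15, 16, 41 and 43 and at 214, 211, 204 and 196 CPM in HET embryos 5, 6, 7 and 24. WT embryo 5 was the lowest of all 9, and the other 4 WT embryos were above every HET embryo, so the groups overlapped through 1 embryo. The log2 fold change was −0.10 (standard error 0.07, 95% interval −0.27 to 0.06, adjusted p = 0.911 from edgeR). Without WT embryo 5 it was −0.15 (unadjusted p = 0.0252, adjusted p = 0.412 from edgeR), and among the embryos with little *Ttr* it was 0.02.

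*Acat2*, the cytosolic thiolase that starts sterol synthesis, had close levels in both genotypes. The gene (ENSMUSG00000023832) spans bases 12942890 to 12960747 of chromosome 17, minus strand. *Acat2* was at 128, 126.2, 148, 133 and 128 CPM in WT embryos 5, 15, 16, 41 and 43 and at 132, 135, 125.6 and 139 CPM in HET embryos 5, 6, 7 and 24. HET embryos lay inside the WT range except for HET embryo 7, which was just below it. The log2 fold change was 0.00 (standard error 0.06, 95% interval −0.14 to 0.14, adjusted p = 1.0 from edgeR). Of the 50-base words in *Acat2* transcripts, 39.1% also occur in its neighbouring paralog *Acat3*, so reads of the pair may have been split or dropped. The exons of *Acat2* overlap no other annotated exon, whereas *Tcp1* overlaps 23.5% of the exonic bases of *Acat3* on the opposite strand. On that strand, 11.2% of the *Acat2* words occur in *Tcp1*, which was at 324 to 425 CPM. The part of such reads in the *Acat2* counts was not tested. *Acat3* was at 0.522 to 1.13 CPM and had a log2 fold change of 0.03 (adjusted p = 0.991 from edgeR).

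Around these genes, 101 others of acetyl-CoA metabolism were placed in 7 lists, and of all 107 genes 100 were tested. In edgeR's test 0 of the 100 had an adjusted p under 0.05, against 0.14% of all genes. DESeq2 called 1 gene of the lists, *Acss1*, against 0.381% of all genes in its test. At an unadjusted p under 0.05 there were 7 genes, 4 lower and 3 higher in HET, a share of 7.0% against 5.42% of all genes (3.09% lower and 2.32% higher). Groups that did not overlap were seen for 3 of the 100, against 1.85% of all genes (0.786% with HET above WT), and these were *Acss1*, *Acsbg1* and *Thrsp*. The median log2 fold change of the 100 was −0.01, against −0.005 over all genes.

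**Figure D5:**
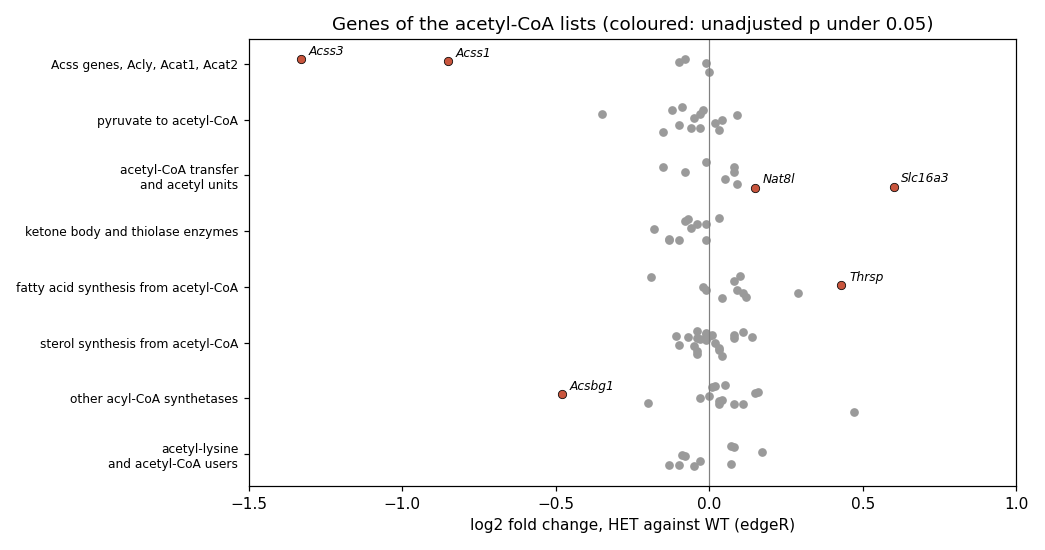
Log2 fold change of HET against WT (edgeR, linear axis) for the tested genes of the 8 lists, the examined genes included and 2 genes left out. Each point is a gene, and coloured points with a name have an unadjusted p under 0.05. The sterol list stays within −0.11 to 0.14, while *Acss3* and *Acss1* lie farthest below 0 among the genes shown.

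A list of 14 genes held the mitochondrial pyruvate carrier, the pyruvate dehydrogenase complex, its kinases and its phosphatases. In this list 10 genes had a log2 fold change below 0, against 51.5% of all genes, with a median of −0.04. The lowest unadjusted p of the list in edgeR was that of the phosphatase gene *Pdp1*, at 0.0637 for a log2 fold change of −0.15. *Dld*, the shared dehydrogenase subunit, had −0.12, and the kinase gene *Pdk4* had −0.35 at 1.19 to 3.4 CPM. None of the 3 had groups that stood apart. A further list held genes that carry acetyl units or monocarboxylates across membranes, together with enzymes that act on acetyl units. Of its 11 genes 9 were tested, with a median log2 fold change of 0.08. *Slc16a3*, the gene of the lactate exporter MCT4, had a log2 fold change of 0.60 (unadjusted p = 0.00783, adjusted p = 0.754 from edgeR), with 2.39 to 3.58 CPM in WT and 3.32 to 5.68 CPM in HET embryos. *Nat8l*, which makes N-acetylaspartate from acetyl-CoA in neurons, had 0.15 (adjusted p = 0.908 from edgeR), and *Slc33a1*, the acetyl-CoA transporter of the endoplasmic reticulum, had −0.15 (adjusted p = 0.911 from edgeR).

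Among 12 genes of ketone bodies and thiolases, 11 had a log2 fold change below 0, against 51.5% of all genes, with a median of −0.07. In edgeR 0 of the 12 were called, against 0.14% of all genes. *Acaa1a* and *Acaa2*, the peroxisomal and mitochondrial thiolases of fatty acid oxidation, had −0.18 and −0.13.

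Sterol and fatty acid synthesis draw on the cytosolic acetyl-CoA that *Acly* supplies. Of 23 sterol synthesis genes, 13 had a log2 fold change below 0, against 51.5% of all genes. The median of the 23 was −0.01, and 0 had an unadjusted p under 0.05 in edgeR, against 5.42% of all genes. The extremes were −0.11 and 0.14, the latter for *Dhcr7*, the last reductase of cholesterol synthesis. *Scap*, the escort of the SREBP factors, had 0.11. Of 11 genes of fatty acid synthesis, 3 had a log2 fold change below 0, against 51.5% of all genes, with a median of 0.09. *Thrsp*, a lipogenic regulator, was at 10.9 to 16.6 CPM in WT and at 18.4 to 23.0 CPM in HET embryos. The fitted log2 fold change was 0.43 (unadjusted p = 0.0063, adjusted p = 0.706 from edgeR). The value was 0.54 among the embryos with little *Ttr*. *Scd1*, a desaturase, had 0.29 and *Elovl6*, an elongase, had 0.11.

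Of 20 genes for other acyl-CoA synthetases 15 were tested, 3 of them with a log2 fold change below 0, against 51.5% of all genes. The median of the 15 was 0.03, and *Acsm1* and *Acsm2* were at 0 counts in all embryos. *Acsbg1*, a synthetase for long chains that is found in astrocytes, was at 11.2, 11.1, 10.9, 13.8 and 11 CPM in WT embryos 5, 15, 16, 41 and 43. It was at 6.52, 7.92, 10.5 and 8.28 CPM in HET embryos 5, 6, 7 and 24, all below WT. Its log2 fold change was −0.48 (standard error 0.14, unadjusted p = 0.00542, adjusted p = 0.671 from edgeR), and −0.41 among the embryos with little *Ttr*. *Acsl4* had 0.16 and *Slc27a4*, a fatty acid transport protein, had 0.08. For 10 genes of protein acetylation and deacetylation the median log2 fold change was −0.04. An unadjusted p under 0.05 in edgeR was seen for 0 of them, against 5.42% of all genes. The acetyltransferase gene *Kat2b* had −0.10, *Kat2a* had 0.17 and *Nat10* had −0.13.

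The genes with the most similar profiles were found by the root mean square difference of mean-centred log2 CPM over the 9 embryos. For *Acss1*, whose own profile had a root mean square of 0.50, the closest were *Gm16209*, *Gucy1b2* and *Gm13569*, at 0.20 to 0.21. *Gucy1b2* encodes a guanylate cyclase subunit and was at 2.68 CPM in WT and 1.75 CPM in HET, and the other two were under 1 CPM. For *Acss3*, with a root mean square of 1.06, the closest were *1700028P14Rik*, *Wdr93* and *Dnah11*, at 0.19 to 0.25. *Dnah11* encodes a dynein heavy chain of motile cilia, which ependymal and choroid plexus cells bear. *Acat1*, at 0.11, was closest to *Lsm1*, *Pdhx* and *Idh1* at 0.02 to 0.03, of which *Pdhx* is a subunit of the pyruvate dehydrogenase complex. *Acss2*, at 0.10, was closest to *Ercc8*, *1110012L19Rik* and *Dcun1d1*, and *Acly*, at 0.16, to *Zscan12*, *Mcm8* and *Rad54b*, all at 0.04 to 0.05. *Acat2*, at 0.07, was closest to *Fkbp8*, *Mrpl10* and *Rbx1* at 0.03. Profiles as flat as those of *Acss2* and *Acat2* resemble many of the 17817 other genes.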

How the data were processed

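Forebrain RNA of 5 WT and 4 HET embryos was poly(A)-captured and made into TruSeq libraries by the authors, who used 1 read of each pair. Alignment was to GRCm38.p6 with STAR 2.7.9a, and featureCounts assigned reads to genes of GENCODE release M25. As deposited, the table holds raw counts for 55401 genes, not normalized by the authors. The strand setting of the counting is not given in the sources used here. Depth was 42640218 to 62830060 counts per embryo. Intervals are confidence intervals of the log2 fold change between genotypes. Their width reflects variation between embryos, but they do not give the range of single embryos.

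Samples were grouped by title. Analysis used R 4.3.3 with edgeR 4.0.16, limma 3.58.1 and DESeq2 1.42.0, and Python 3.11.15 with scipy 1.17.1. Low genes were removed by filterByExpr (minimum count of 10), libraries were scaled by TMM, and the main test over all 9 embryos was edgeR's quasi-likelihood F test, with no covariate and Benjamini-Hochberg adjustment over 17818 genes. Standard errors are the log2 fold change over the root of F. The study used DESeq2, which was run as an alternative. Log2 CPM used a prior count of 2. The choroid plexus covariate was the mean log2 CPM of 8 markers. Coordinates and lengths came from GENCODE release M21, also on GRCm38, which lists 55141 of the identifiers. Tests were checked on counts simulated once from edgeR's own means and dispersions. There a larger share of calls was false with DESeq2 than with edgeR, and DESeq2 recovered more of the changed genes. Such counts follow edgeR's model, so they cannot rank the methods.

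The 6 genes and the lists were chosen with earlier results of these data known. Other genes are named if they had one of the 3 lowest p-values in an acetyl-CoA list, one of the 3 closest profiles to an examined gene, or overlapped one or shared sequence with it. Of these, 2 are not reported here, though the counts of their lists include them. The non-overlapping groups, and the marker genes *Aldh1l1*, *Aqp4*, *Aldoc*, *Gja1*, *Hopx*, *Kl* and *Fabp7*, were picked out after their values were seen.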

Additional observations from a re-analysis of the deposited data

How the results depend on the processing

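*Acss1* kept its direction under all 8 alternatives and all 9 fits without an embryo. It passed the threshold under 2 alternatives, at −0.84 with DESeq2 and −0.85 without a filter on low counts. Under each of these 1 gene of the acetyl-CoA lists, *Acss1*, was called in place of 0. Over all genes DESeq2 called 0.381%, and edgeR without a filter called 35 of 33242. The cause of this difference between fits was not tested. Among the embryos with *Ttr* under 100 CPM the difference was 0.46 for *Acss3*, 0.02 for *Acat1*, and −1.03 for the log2 ratio of *Acss1* to *Acss2*, for which 2 against 3 embryos cannot pass the threshold. *Acat2* was at −0.01 with upper-quartile scaling and at −0.01 without a filter. Per kilobase of the longest transcript, WT means were 6.93 RPKM for *Acss2*, 108 for *Acly*, 65.0 for *Acat1* and 59.0 for *Acat2*, since the length is shorter.

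Leaving out each embryo gave −0.93 to −0.71 for *Acss1*, −0.15 to −0.05 for *Acss2*, −1.57 to −0.98 for *Acss3*, −0.11 to 0.06 for *Acly*, −0.15 to −0.06 for *Acat1* and −0.02 to 0.04 for *Acat2*. It gave −0.85 to −0.62 for the ratio and 0 calls in the lists each time. *Acss3* could not be fitted with the filter at a minimum count of 30, which removed it. DESeq2 called 84 genes in all and edgeR 25, or 35 without a filter. Among the embryos with *Ttr* under 100 CPM edgeR called 15. No paired analysis was possible because the sources used here give neither the litter of an embryo nor any pairing of WT with HET. PCR duplicates cannot be told from molecules, and *Acss3* rests on 11 to 94 reads per embryo.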

Other observations

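Markers of other cells were examined in the same embryos. Of 7 endothelial markers 5 had a log2 fold change below 0, against 51.5% of all genes, with a median of −0.21. In edgeR 0 of the 7 were called, against 0.14% of all genes. At an unadjusted p under 0.05 in edgeR 3 were lower in HET, against 3.09% of all genes. The summed level of the 7 markers overlapped, at 130.0 to 188.2 CPM in WT and 125.9 to 143.2 CPM in HET embryos. Of 7 markers of meninges and fibroblasts all had a log2 fold change below 0, with a median of −0.36. In edgeR 0 of them had an unadjusted p under 0.05, against 5.42% of all genes. Their summed levels overlapped, at 15.4 to 55.9 CPM in WT and 22.1 to 29.3 CPM in HET embryos. The medians of the other lists were −0.12 for 6 mural, 0.07 for 7 microglial, 0.22 for 6 oligodendrocyte lineage, 0.04 for 6 erythroid, 0.03 for 8 neuronal and 0.09 for 6 forebrain markers. None of these markers was called in edgeR. At an unadjusted p under 0.05 in edgeR there were 2 of them, against 5.42% of all genes (2.32% higher in HET). Both were higher in HET and belonged to the 6 markers of the oligodendrocyte lineage. Whether any of these moved with *Acss1* was not tested.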
